A study of Mus musculus with 14 samples.

Results

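Small RNA carried by exosomes of adipose tissue macrophages (ATMs) was compared between obese and lean mice, and 7 microRNA (miRNA) hairpins typical of epithelial cells are described here. They are the 5 hairpins of the miR-200 family (mmu-mir-200a, mmu-mir-200b, mmu-mir-200c, mmu-mir-141 and mmu-mir-429) together with mmu-mir-203 and mmu-mir-205. They were taken by name from the authors' deposited table, and all 7 are among its 539 hairpins. By the labels, 7 libraries are of obese and 7 of lean ATM exosomes. Both groups come from C57BL/6 mice, with no other genotype, diet or treatment named, and both are of exosomes from CD11b+F4/80+ cells kept for 72 h in IMDM with 10% serum freed of exosomes. The age labels are ranges that all start at 24 weeks and end at 26 to 32 weeks in obese and 33 to 39 weeks in lean libraries, each end 1 week past that of the sample listed before it. If these ends hold, age and obesity cannot be told apart.

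The miR-200 family is known as a keeper of the epithelial state. Its members bind the messages of the repressors ZEB1 and ZEB2, which shut down E-cadherin, and ZEB1 and ZEB2 in turn repress the genes of the miR-200 family, so that epithelial cells hold much of the family and mesenchymal cells little. The miRNA miR-203 restrains stem-cell properties in the skin and acts with the differentiation of keratinocytes, and miR-205 is abundant in stratified epithelia and also targets ZEB1 and ZEB2. Macrophages are not epithelial, and these miRNAs belong to no defining set of theirs.

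A miRNA recognises its targets mainly through its seed, the bases from position 2 to position 8. The main mature forms are shown here because the seed divides the family in a way that the genome does not. Capitals mark the seed, sequences run 5′ to 3′, and they are RefSeq's on GRCm38.p6.
miR-200b-3p: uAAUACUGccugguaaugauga
miR-200c-3p: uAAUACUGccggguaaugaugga
miR-429-3p: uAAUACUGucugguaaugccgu
miR-200a-3p: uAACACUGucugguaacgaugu
miR-141-3p: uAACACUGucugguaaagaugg
miR-203-3p: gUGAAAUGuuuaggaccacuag
miR-205-5p: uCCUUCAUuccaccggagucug

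Counted from the 5′ end, miR-200b-3p and miR-200a-3p differ by 4 substitutions, of which U4C alone lies in the seed. The closest pairs lie within a seed group. Over 22 bases miR-200b-3p and miR-200c-3p differ by U11G and A22G, and miR-200a-3p and miR-141-3p by C17A and U22G. Among the mature mouse miRNAs that RefSeq lists, AAUACUG is the seed of 3 and AACACUG of 2, all of them in the family, while UGAAAUG is the seed of miR-203-3p alone and CCUUCAU that of miR-205-5p alone.

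The genome groups the family otherwise. On chromosome 4 of GRCm38, mir-200b (ENSMUSG00000065549.3, bases 156055681 to 156055750, minus strand) is followed by mir-200a (ENSMUSG00000065400.1, bases 156054896 to 156054985) at 765 bases and by mir-429 (ENSMUSG00000065427.1, bases 156053905 to 156053987) at 1763 bases. GENCODE M21 places all of these within introns of Ttll10, with mir-200b and mir-200a also in an intron, and mir-429 in an exon, of the noncoding transcript Gm13648. On chromosome 6, mir-200c (ENSMUSG00000065462.3, bases 124718322 to 124718390, minus strand) is followed by mir-141 (ENSMUSG00000065474.1, bases 124717914 to 124717985) at 405 bases, both in an intron of the noncoding RNA Gm15884, and mir-141 overlaps in part an exon of the unverified transcript Gm29008. Each cluster therefore holds both seeds. The hairpin mir-203 (ENSMUSG00000065574.1) lies at bases 112130880 to 112130955 of chromosome 12, plus strand, outside annotated hosts. The hairpin mir-205 (ENSMUSG00000065533.1) lies on chromosome 1, bases 193507463 to 193507530 of the minus strand, in an exon of the long noncoding RNA 4631405K08Rik.

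A row of the deposited table is a hairpin, so reads of both arms stand in 1 value. The hairpins of the neighbours mir-200b and mir-200a are printed with both annotated arms in capitals, the 5p arm first.
mir-200b hairpin: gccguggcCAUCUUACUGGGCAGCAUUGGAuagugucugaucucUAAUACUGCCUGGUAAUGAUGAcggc
mir-200a hairpin: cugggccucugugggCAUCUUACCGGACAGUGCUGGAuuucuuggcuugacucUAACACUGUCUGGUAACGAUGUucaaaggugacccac
In the 5p arms the grouping is different, since mir-200b and mir-200a both have the seed AUCUUAC there, against GUCUUAC for mir-200c, UCUUACC for mir-429 and AUCUUCC for mir-141. Which arm the reads came from cannot be told from the table. No hairpin of the 7 shares a run of 20 bases with a GENCODE transcript of another place in the genome. The sources used here do not give how reads matching several hairpins were assigned.

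The table holds no value for any library. It gives for each hairpin the log2 fold change, the mean log2 expression over both groups, t and p before and after adjustment, so levels per group, spread within a group and depth are unknown. Nothing in the labels says that libraries came from separate animals, and the p-values then measure only the spread between these libraries, which may be technical. Nor is the numerator of the fold change stated. A published study of this material, which is no part of the files, found miR-155 enriched in the obese ATM exosomes, and mir-155 has a log2 fold change of 4.41 in the authors' deposited table. Under that report a positive fold change means more in obese ATM exosomes than in lean ones, and every sign given here holds only relative to mir-155. In bulk RNA of this kind, fewer vesicles from a cell type and less of a miRNA per vesicle cannot be told apart.

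None of the 7 hairpins was among the 180 most abundant of the table. In the authors' deposited table the order by mean log2 expression was mir-141 (3.62), mir-203 (3.10), mir-200c (2.55), mir-200b (2.45), mir-200a (1.19), mir-429 (0.60) and mir-205 (0.11). The median of all 539 hairpins in the authors' deposited table is 2.34, so 4 of the 7 lie above it and 3 below. Mature miRNAs are nearly equal in length, so no correction for length was made. Without values per library it is unknown which neighbours in this order differ beyond their spread. The most abundant hairpin in the authors' deposited table, mir-191, has a mean log2 expression of 15.69, which is 12.07 log2 units above mir-141 and 15.57 above mir-205. Of the 7 hairpins, 5 are among the 179 in the middle of the order, and mir-429 and mir-205 are among the 180 least abundant.

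Within each cluster the levels were unequal, by amounts whose error is unknown. On chromosome 4, the mean log2 expression of mir-200a less that of mir-200b is −1.26, and that of mir-429 less that of mir-200b is −1.85. The order reverses on chromosome 6, where the downstream mir-141 lies 1.07 log2 units above mir-200c. These are differences between mean log2 expression values of the authors' deposited table, taken over obese and lean libraries together.

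**Figure D1:**
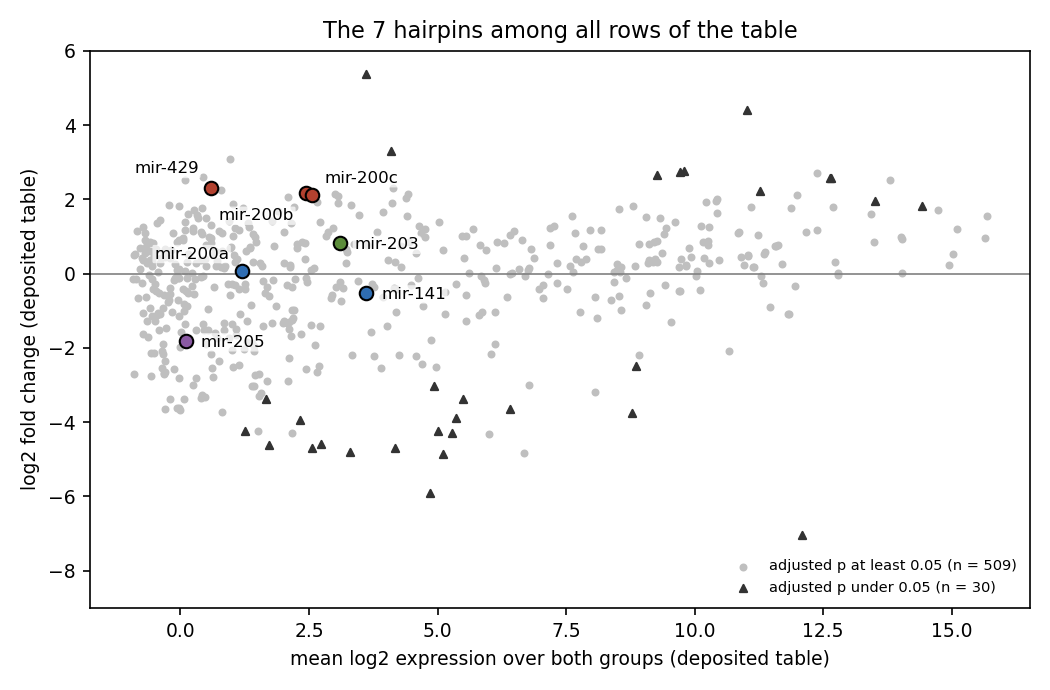
Mean log2 expression over both groups (x axis) and log2 fold change (y axis) of all 539 hairpins, from the authors' deposited table; triangles are the 30 hairpins with an adjusted p under 0.05, and large points are the 7 hairpins described here, coloured by seed. All 7 lie at a mean log2 expression between 0.11 and 3.62, mir-429, mir-200b and mir-200c stand together between 2.11 and 2.30 on the fold-change axis, and none of the 7 is a triangle.

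The question of the comparison is which miRNAs differ between exosomes of obese and lean ATMs. None of the 7 hairpins passed the adjusted p threshold of 0.05, which 5.57% of all hairpins in the authors' deposited table passed. At an unadjusted p under 0.05, 3 of the 7 passed, all positive, while of all hairpins 17.6% passed, 8.53% on the positive side and 9.09% on the negative side. Those 3 are mir-429, mir-200b and mir-200c, the hairpins whose 3p arm has the seed AAUACUG.

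The largest value belongs to mmu-mir-429, the last hairpin of the chromosome 4 cluster. The authors' deposited table gives it a log2 fold change of 2.30 (4.93-fold) and an adjusted p of 0.123, and the standard error derived from fold change and t is 0.83, with a 95% interval from 0.56 to 4.04. By unadjusted p it ranks at 52 of 539, at a mean log2 expression under that of any hairpin that passed. The first hairpin of the same cluster, mmu-mir-200b, is at 2.17 in the authors' deposited table (4.49-fold, 95% interval 0.01 to 4.32, adjusted p = 0.276). From the other cluster, mmu-mir-200c is at 2.11 in the authors' deposited table (4.32-fold, 95% interval 0.05 to 4.17, adjusted p = 0.261). These 3 fold changes span 0.19 log2 units, and the intervals of mir-200b and mir-200c barely clear 0.

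The members with the seed AACACUG are elsewhere. The log2 fold change of mmu-mir-200a, which lies between mir-200b and mir-429, is 0.07 in the authors' deposited table (standard error 0.97, 95% interval −1.97 to 2.10, adjusted p = 0.973). Its partner by seed, mmu-mir-141, is at −0.51 in the authors' deposited table (standard error 0.86, 95% interval −2.32 to 1.30, adjusted p = 0.837). Both intervals hold 0 and also hold changes of several fold. The 180 most abundant hairpins have a median log2 fold change of 0.34, and when this was subtracted from all values, mir-200a turned to −0.27. Subtracting 0.09, the median of all hairpins, turned it to −0.024. Under either recentring, mir-429 was the 1 hairpin of the 7 left with an unadjusted p under 0.05.

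**Figure D2:**
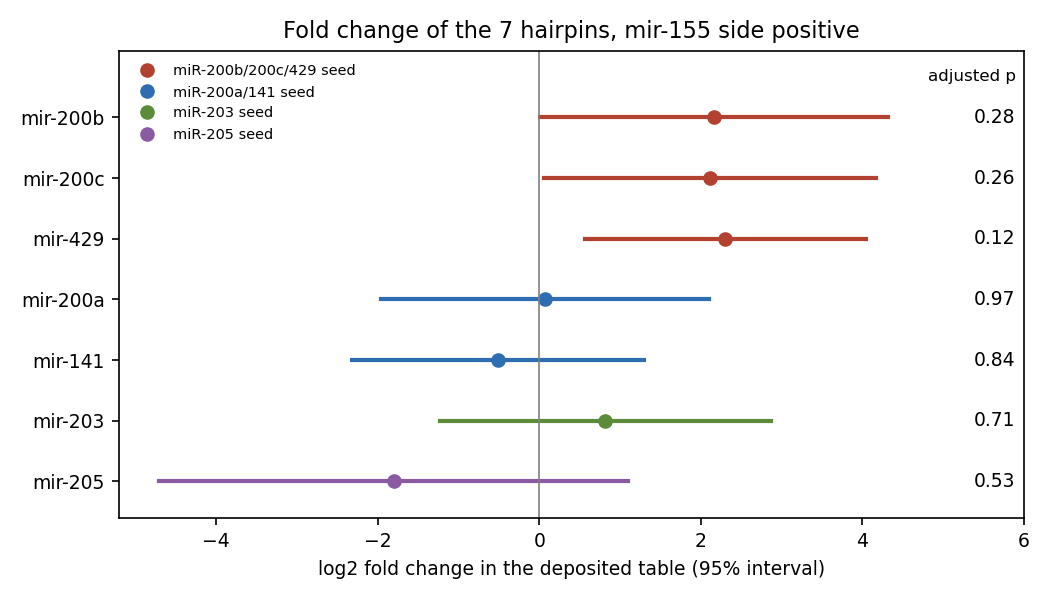
Log2 fold change in the authors' deposited table (points) with 95% intervals (lines) for the 7 hairpins, coloured by seed, with the adjusted p at the right; positive is the side of mir-155. The 3 hairpins of the miR-200b seed lie at 2.11 to 2.30 with intervals above 0, of which those of mir-200b and mir-200c start at 0.01 and 0.05 and that of mir-429 at 0.56, and the intervals of the other 4 hold 0.

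The keratinocyte miRNAs had values of opposite sign, neither past the test. The hairpin mmu-mir-203 has a log2 fold change of 0.82 in the authors' deposited table (standard error 0.98, 95% interval −1.24 to 2.88, adjusted p = 0.715). RefSeq annotates a hairpin, mir-203b, on the opposite strand of the same bases, and its 5p form, shown in capitals because all of its 20 bases lie opposite miR-203-3p, spans bases 112130927 to 112130946, while miR-203-3p spans bases 112130927 to 112130948.
miR-203b-5p: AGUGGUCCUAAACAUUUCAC
The sources used here do not say whether counting used strand, so it is unknown whether the value of mir-203 also holds reads of mir-203b. The hairpin mmu-mir-205 is at −1.80 in the authors' deposited table (adjusted p = 0.530), the most negative of the 7. It is also the least abundant and the least precise, with a standard error of 1.38 and a 95% interval from −4.71 to 1.10.

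Precision limits all 7, about as much as it limits the table at large. The median standard error is 0.98 for the 7 and 0.97 for all 539 hairpins. Within the 7 the standard errors run from 0.83 (mir-429) to 1.38 (mir-205). Given its standard error and the smallest absolute t that passed in the table, 3.53, a hairpin needed a log2 fold change of 2.92 (mir-429) to 4.88 (mir-205) to pass. Standard errors had a median of 1.02 for the 180 least abundant hairpins, where 0 passed, and of 1.10 for the 179 in the middle, where 14 passed, 12 of these on the negative side. For the 180 most abundant the median was 0.76, and 16 passed. At an unadjusted p under 0.05, by the authors' limma comparison, 21 of the least abundant 180 passed. No other tool could be run without values per library. So for mir-200a and mir-141 the data do not show that obese and lean ATM exosomes hold the same amount.

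Differences between members were set out for all 10 pairs of the miR-200 family. The 4 pairs that share the seed of the 3p arm differ in log2 fold change by 0.06 to 0.58, and the 6 pairs with unlike seeds differ by 2.04 to 2.82. Within the clusters, mir-200b exceeds mir-200a by 2.10, mir-429 exceeds mir-200a by 2.23 and mir-200c exceeds mir-141 by 2.62. The error of such a difference depends on how the hairpins vary together across libraries, which the table does not give. If their errors were independent, the 95% interval of the difference would run from −0.12 to 5.36 for mir-200c less mir-141 and from −0.86 to 5.06 for mir-200b less mir-200a, and of the 10 intervals only that of mir-429 less mir-141 (0.30 to 5.33) would exclude 0, with no adjustment over the 10 pairs. With the largest standard error that any correlation allows, none of the 10 would exclude 0. The division by seed is therefore a description of 5 fold changes and is not larger than the error that the table leaves possible.

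**Figure D3:**
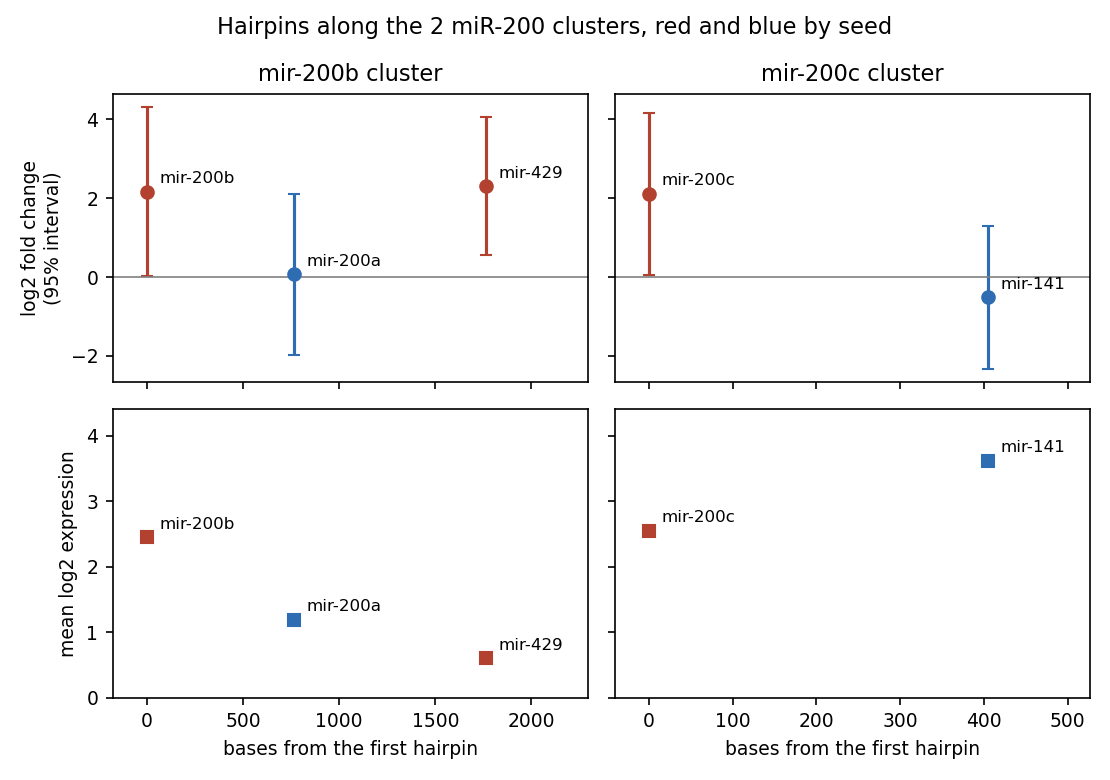
Hairpins of the clusters led by mir-200b (left) and mir-200c (right), placed by the number of bases from the first hairpin (x axis), with the log2 fold change and its 95% interval (top) and the mean log2 expression over both groups (bottom), from the authors' deposited table; red is the seed of miR-200b, miR-200c and miR-429 and blue that of miR-200a and miR-141. In each cluster the red points lie above 2 and the blue points near 0, with overlapping intervals, while the level is lower with each step along the first cluster and higher at the second hairpin of the other.

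Neighbouring hairpins are often cut from 1 primary transcript, which gives a scale for these values. RefSeq placed 447 of the 539 hairpins, and 72 pairs lie next to each other within 10000 bases on the same strand. In the authors' deposited table, the log2 fold changes of such neighbours differ by a median of 0.69 (quartiles 0.25 and 1.31). The 3 neighbouring pairs of the miR-200 family differ by 2.10, 2.23 and 2.62. Of the 72 pairs, 8 differ by at least as much as mir-200b and mir-200a, the closest of the 3. The family's own smallest value set this cutoff, so its 3 pairs are counted by construction. The pair of mir-381 and mir-487b falls just short of it, at 2.097 against 2.098. In 24 of the neighbouring pairs both hairpins were no more abundant than mir-141. Of these 24, 5 differed by at least as much as mir-200b and mir-200a, the 3 pairs of the family again included by construction. The median difference over the 24 was 1.06 (quartiles 0.28 and 1.98). The 3 family pairs raise this median, so it cannot settle whether differences are wider at low abundance, which was not tested. Outside the family, pairs among the 24 differed by as little as 0.03 (mir-134 and mir-485). Others reached 2.10 (mir-381 and mir-487b), 2.28 (mir-6975 and mir-8094) and 2.76 (mir-201 and mir-547). More abundant pairs reached 2.15 (mir-199a-2 and mir-214), 2.44 (mir-188 and mir-532) and 5.66 (mir-29a and mir-29b-1).

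Hairpins that share a seed give a second scale. From the RefSeq mature forms used here, 144 pairs of hairpins were found that share a seed in the same arm and differ in mature sequence. The set is not complete, since mir-23a with mir-23b, for example, is not in it. Many of the pairs are combinations of abundant let-7 hairpins, so the same hairpin enters many pairs. Over the 144, the median difference of log2 fold change in the authors' deposited table is 0.71. Of them, 61 differ by no more than the 0.58 between mir-200a and mir-141. Among the 18 of these pairs in which both hairpins were no more abundant than mir-141, the median difference was 0.83, and 7 differed by no more than 0.58, of which 4 are the pairs of the family and 3 are among the 14 others. One of the 144 is mir-200b with mir-200a, through the 5p arm, at 2.10. Such pairs include near copies between which reads can be shared, and the part of shared reads in the closeness of mir-200b, mir-200c and mir-429 was not tested. Their 3p forms differ from each other by 2 to 5 substitutions over 22 bases.

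**Figure D4:**
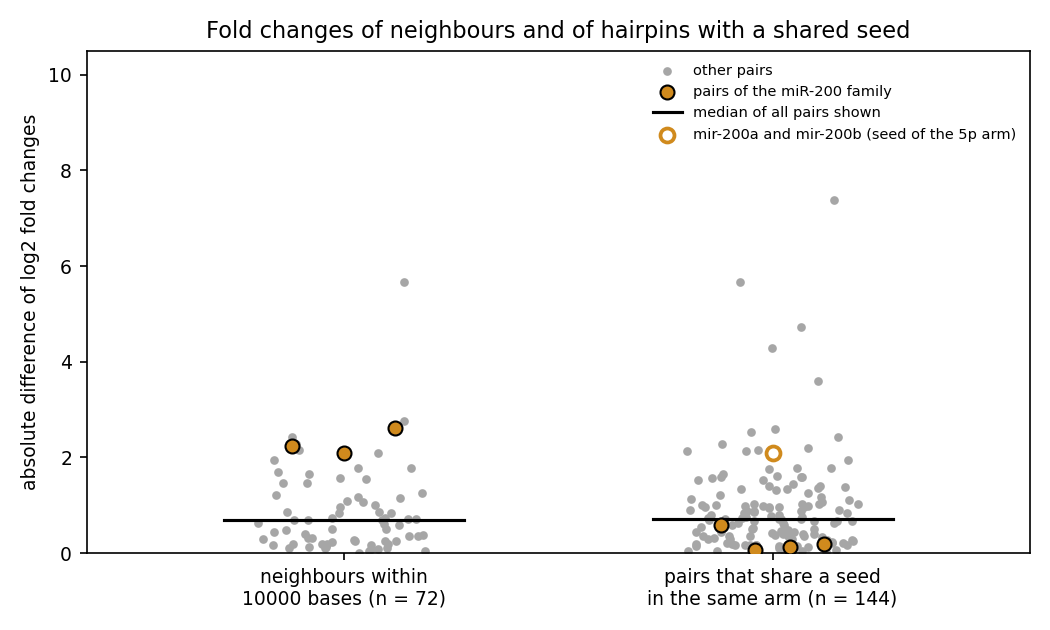
Absolute difference of log2 fold changes (y axis) for 72 pairs of neighbouring hairpins on the same strand and for 144 pairs that share a seed in the same arm, from the authors' deposited table; lines are medians (0.69 and 0.71), filled orange points are pairs of the miR-200 family, the open orange point is mir-200b with mir-200a through the 5p arm, and points are spread sideways only for legibility. The neighbouring pairs of the family lie at 2.10 to 2.62 and its pairs with a shared 3p seed at 0.06 to 0.58.

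As a list, the 7 hairpins have a median log2 fold change of 0.82 with 5 positive values, against a median of 0.09 with 52.7% positive over all hairpins in the authors' deposited table. None of the 7 is among the 180 most abundant hairpins. The 179 in the middle have a median of −0.30 with 43.6% positive, and the 180 least abundant a median of −0.12 with 46.7% positive. The median of the 7 became 0.48 after recentring by 0.34 and 0.73 after recentring by 0.09, and the count of positive values 4 of 7 in both cases. Of 11 other hairpins of epithelial or sensory tissues, none passed, with 6 positive values and a median of 0.06, which turned to −0.28 and −0.03 under those recentrings. The most abundant of them are mir-182 and mir-183, from a cluster expressed in sensory epithelia and activated lymphocytes, and mir-192, known from gut, liver and kidney. At a mean log2 expression of 12.78, 11.46 and 10.05 they lie far above the miR-200 family, with log2 fold changes of −0.05, −0.90 and 0.06 in the authors' deposited table. The authors' deposited table gives the smallest p-values of that list to mir-194-2, with a log2 fold change of −1.08 (adjusted p = 0.509), and mir-194-1, with 1.11 (adjusted p = 0.530). The copies share the 5p form and differ in the 3p form, and reads of both arms stand in each value.

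Other miRNAs tied to the epithelial-mesenchymal transition (EMT), the change that the miR-200 family restrains, were mostly more abundant. The median of mean log2 expression was 2.45 over the 7 hairpins, 8.57 over 13 hairpins reported to restrain EMT and 10.39 over 10 reported to favour it, in the authors' deposited table. Of the 13 that restrain EMT, none passed, 8 were positive, and 6 were positive after recentring by 0.34. The authors' deposited table gives the smallest p-values there to mir-30d, with a log2 fold change of 1.61 (adjusted p = 0.123), and mir-30a, with 1.18 (adjusted p = 0.350). Of the 10 that favour EMT, all were positive (9 after recentring by 0.34) with a median of 1.02, and mir-222 alone passed. That hairpin, which targets a cell-cycle inhibitor in many cancers, has a log2 fold change of 1.82 in the authors' deposited table (adjusted p = 0.0240), while its neighbour mir-221 has 1.72 (adjusted p = 0.123). Recentring by 0.34 left none of the 10 past the threshold. The 10 come from 7 stems, with every copy of mir-9 and mir-103 counted, so they are not separate results. All but the mir-9 copies are among the 180 most abundant hairpins, of which 67.8% were positive with a median of 0.34. The hairpins of the EMT lists were chosen for their reported roles in epithelial and cancer cells, and several also act in macrophages.

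**Figure D5:**
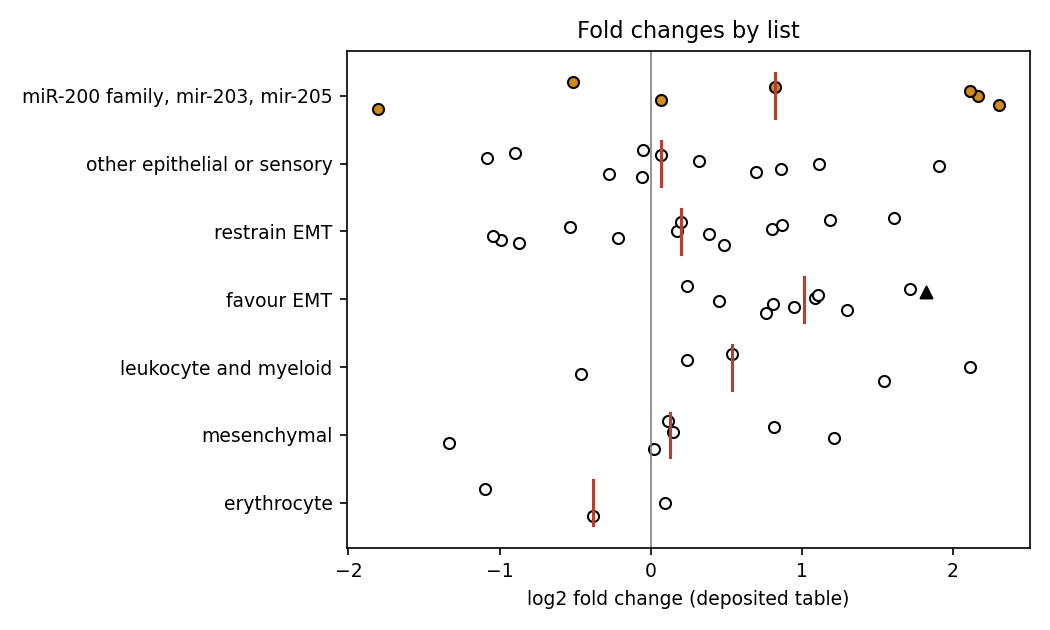
Log2 fold change in the authors' deposited table for the 7 hairpins (orange) and for hairpins of other lists (open circles), with the median of each list as a red line. The triangle is mir-222, the only hairpin shown with an adjusted p under 0.05. Points are spread vertically by mean expression within a list. The lymphocyte list, in which 4 hairpins passed, and the endothelial, liver and serum, and muscle lists are not shown. The 7 hairpins span −1.80 to 2.30, the widest range of the lists shown.

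Markers of macrophages and of other cells give the setting for these levels. The hairpins listed as leukocyte and myeloid are mir-223, mir-142a, mir-22, mir-21a and mir-146a, and none passed. They have a mean log2 expression of 7.62 to 15.02 in the authors' deposited table, all above the 7 epithelial hairpins. The top of that range is set by mir-22 (15.02) and mir-21a (14.94), and the others reach 11.99. The hairpin mir-21a was also counted in the list that favours EMT. The authors' deposited table gives the smallest p-values of the leukocyte and myeloid list to mir-146a, with a log2 fold change of 2.11 (adjusted p = 0.183), and mir-223, with 1.54 (adjusted p = 0.307). Among 6 mesenchymal hairpins none passed and 5 were positive, or 2 after recentring by 0.34, with mean log2 expression from 0.22 to 6.59. Of these, mir-199a-2 and mir-214 have the smallest p-values in the authors' deposited table, with log2 fold changes of 0.81 (adjusted p = 0.567) and −1.33 (adjusted p = 0.648). Of 3 erythrocyte hairpins none passed, with 1 positive and 2 negative values, or 3 negative after recentring by 0.34. In the authors' deposited table, mir-486a, mir-451a and mir-144 stood at a mean log2 expression of 11.81, 6.76 and 4.15, with log2 fold changes of −1.09 (adjusted p = 0.526), 0.09 (adjusted p = 0.965) and −0.39 (adjusted p = 0.937). The endothelial mir-126a stood at a mean log2 expression of 6.46 with a log2 fold change of 0.01 (adjusted p = 0.995) in the authors' deposited table, which turned to −0.33 after recentring by 0.34. In the authors' deposited table the liver and serum pair, mir-122 and mir-192, stood at levels of 2.15 and 10.05 with log2 fold changes of 1.36 (adjusted p = 0.612) and 0.06 (adjusted p = 0.973), the second turning to −0.28 after recentring by 0.34. For the muscle hairpins mir-133a-2 and mir-133a-1, both at a mean log2 expression of 2.27, the authors' deposited table gives log2 fold changes of 0.80 (adjusted p = 0.866) and 0.69 (adjusted p = 0.896). Of 5 lymphocyte hairpins, all positive, 4 passed, namely every hairpin of miR-181a and miR-181b, which macrophages also express. The smallest p-values among them in the authors' deposited table belong to mir-181b-1 and mir-181b-2, with log2 fold changes of 2.74 and 2.75 (adjusted p = 0.00142 each), while the mature lymphocyte marker mir-150 has 0.59 (adjusted p = 0.910). These marker levels are means over both groups, and their part in the values of the miR-200 family was not tested.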

How the data were processed

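The material is 1 table of the authors' comparison of obese and lean ATM exosomes, with limma's columns per the file headers. Fold changes and mean expression are log2 values in the authors' deposited table. Its t is a score as deposited, and B is a natural log of odds, per the file headers. The p-values were deposited before and after adjustment. Per the submitters' processing notes, FastQC, MultiQC, limma, edgeR, Novoalign and Trimmomatic 0.30 were used, with no roles given. The sources used here give no build, normalization or filters, and depth is unknown.

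No model was refitted, since the table has 0 columns of per-library values. Benjamini-Hochberg adjustment over the 539 unadjusted p-values gave the deposited adjusted ones (largest difference 1.46e-14). The standard error is the fold change over t, and 95% intervals rest on 17.9 degrees of freedom recovered from t and p. Both steps were tested on simulated limma output (limma 3.58.1, R 4.3.3). Recentring subtracts a median and recomputes t, p and the adjustment (Python 3.11.15, scipy 1.17.1). All 7 members were named. Of each list the text gives counts, the 2 hairpins of smallest p where a list has several, and defining markers. Members and lists were chosen with earlier results of these data known. The hairpins mir-182, mir-183, mir-191 and mir-192 were named for their levels after these were seen.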

Additional observations from a re-analysis of the deposited data

How the results depend on the processing

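None of the 7 hairpins passed under any of the 6 alternatives run, all planned, which were an adjusted p under 0.1, a log2 fold change of at least 1, a minimum mean log2 expression of 3.32, recentring by 0.34 or by 0.09, and 1 hairpin per stem. Their smallest adjusted p over these ranged from 0.123 to 0.843, the last with mir-141 alone left above the minimum. Positive values numbered 5, and 4 after either recentring, where mir-200a turned to −0.27 and −0.024, and no other member changed sign. An unadjusted p under 0.05 was met by 3 members, and by 1 after either recentring. The other fits listed (leaving out libraries, other count tests and normalizations) need values per library and were not run. No paired analysis was possible because single libraries have no values in the table.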
